A study of Arabidopsis thaliana with 3 samples.

Results

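The WRKY family of transcription factors was followed in rosettes of the lsm1a lsm1b double mutant of Arabidopsis thaliana and of Col-0, the wild type. A gene was counted as a member where its symbol in the probe annotation or in the RefSeq gene table, with any leading AT removed, read WRKY followed by digits. This rule found 66 genes with 93 probes among 24648 named genes, of the 67 symbols of this form in the gene table. WRKY12 was not analysed here. Of the 66 genes, 41 had 1 probe, 23 had 2 and 2 had 3, and a gene's value on an array is the average of its probes.

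RNA of the lsm1a lsm1b double mutant and RNA of Col-0 were hybridised together on each of 3 two-colour arrays, 1 per biological replicate, with the mutant in Cy5 on array 2 and in Cy3 on arrays 1 and 3. LSM1A and LSM1B encode the LSM1 subunit of the cytoplasmic ring that promotes decapping and decay of messenger RNAs. Both genotypes carried the same labels otherwise: rosettes, with an age of 2 weeks and growth at 22 °C under 16 h of light and 8 h of dark in one set of fields, and an age of 3 weeks with 1 day at 4 °C in another. The sources used here give neither the mutant alleles nor the number of plants per sample. A value is the deposited log2 ratio of an array, read as lsm1a lsm1b over Col-0, so a ratio above 0 means a higher level in the mutant. That direction is likely and not certain; were it opposite, all signs below would turn while sizes and p-values would not. A table of ratios holds no levels, so the labelled tissue could not be checked by its markers. In a whole rosette, fewer cells of a type and less RNA per cell cannot be told apart.

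WRKY proteins are plant transcription factors that carry a DNA-binding domain named after its WRKYGQK stretch and bind W-box elements in promoters, those of many WRKY genes included. The family is divided by the number of WRKY domains and the type of zinc finger into group I, subgroups IIa to IIe of group II, and group III. In leaves its members are best known as activators and repressors of defence that act downstream of salicylic acid and of MAP kinase cascades, and others act in senescence, phosphate supply, heat tolerance and development.

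The lists of members by role were chosen with earlier results of these data known and share some members. Their values are a description, and differences between the lists were not tested. Of the 66 WRKY genes, the 20 listed for salicylic acid and defence had a median mean ratio of 0.64, beside 0.01 over all named genes, with medians of 0.25, 0.93 and 0.59 on arrays 1, 2 and 3. Above 0 on all 3 arrays stood 11 of them, beside 19.7% of all named genes. The 9 members listed for pattern-triggered immunity and camalexin had a median of -0.03, with 2 above 0 on all 3 arrays, and the 7 listed for senescence and phosphate had a median of 0.23, with 5 above 0 on all 3. The 7 measured members listed for development had a median of -0.01, with WRKY28, which stands in the defence list too, above 0 and WRKY2 below 0 on every array. WRKY28 was the single member past the threshold over all genes, an adjusted p under 0.05 in limma, and it rose 1.84-fold in the mutant. That is 1 of 66 members, beside 1.21% of all named genes: 1 was higher, beside 0.625%, and 0 were lower, beside 0.584%. At an unadjusted p under 0.05, 21 members passed (31.8%), beside 20.1% of all named genes. Of these, 18 were higher in the mutant, beside a background of 10.6%, and 3 were lower, beside 9.48%. The median of the members' mean ratios was 0.08, beside 0.01, with member medians of 0.04, 0.18 and 0.06 on arrays 1, 2 and 3. The family as a whole therefore stood close to 0, and its high ratios belonged to a limited number of members.

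Ratios of 0.5 or more were held by 17 of the 66 members (25.8%), beside 6.3% of all named genes. A ratio of -0.5 or less was held by 1 member, WRKY69, beside 5.27%. Ratios of 1 or more were held by 6 members (9.09%), beside 1.43%, and ratios of -1 or less by 0 members, beside 1.14%. Above 0 on all 3 arrays stood 23 members (34.8%), beside 19.7%, and below 0 on all 3 stood 4 members (6.06%), beside 18.0%. The other 39 members did not keep 1 sign. Of the 66 means 43 were above 0, beside 51.4% of all named genes. The mean lay between -0.25 and 0.25 for 41 members.

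**Figure D1:**
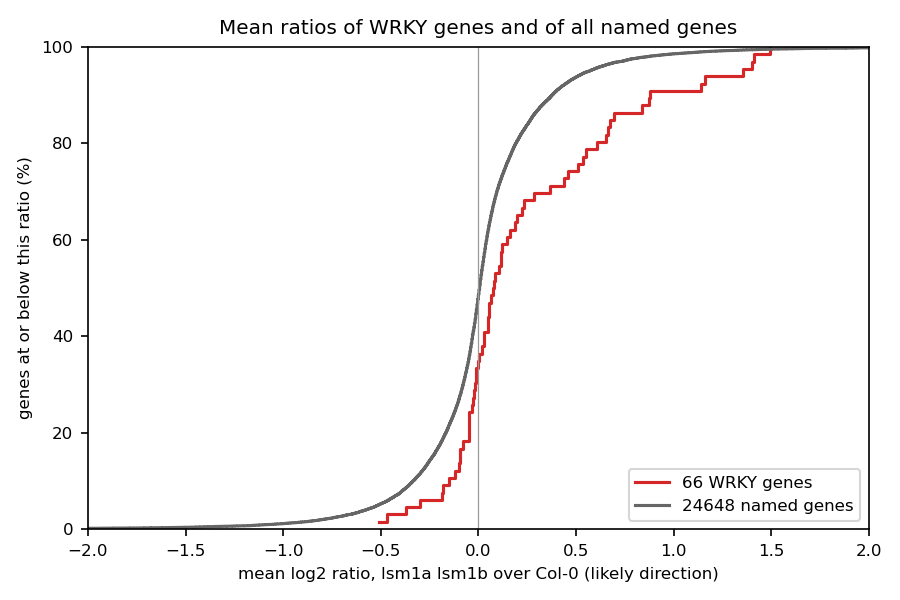
Cumulative share of genes (vertical axis, %) at or below a mean log2 ratio of lsm1a lsm1b over Col-0 (horizontal axis, cut at -2 and 2), for the 66 WRKY genes (red) and the 24648 named genes (grey). The red line follows the grey one to the right of 0 at a distance, with 25.8% of WRKY genes and 6.3% of all named genes at 0.5 or more.

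WRKY28, a subgroup IIc factor reported to activate the salicylic acid synthesis gene ICS1, had ratios of 1.01, 0.85 and 0.78 on arrays 1, 2 and 3. The arrays lay close together, and the dye-swapped array 2 stood between the others. Its mean was 0.88 ± 0.12 (SD, n = 3 arrays, as for every mean below), with a 95% interval of 0.63 to 1.12 and an adjusted p of 0.0465 in limma. Its 2 probes gave means of 0.97 and 0.79. The call needs all 3 arrays: in limma its adjusted p was 0.295, 0.0737 and 0.263 without arrays 1, 2 and 3, and 0.0709 with a dye term. The mean ratio stayed between 0.81 and 0.93 when 1 array was left out.

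WRKY51 and WRKY50, related subgroup IIc genes that take part in the repression of jasmonate responses when salicylic acid signalling is active, were high on every array. WRKY51 had 1.10, 2.18 and 1.20 on arrays 1, 2 and 3, the highest mean of the family at 1.49 ± 0.60 (2.82-fold), and did not pass over all genes (limma adjusted p = 0.0744). WRKY50 had 0.67, 1.12 and 0.85, a mean of 0.88 ± 0.23 (limma adjusted p = 0.0603). On WRKY51 array 2 stood apart from the others, while on WRKY50 the arrays were closer. WRKY48, a subgroup IIc gene known as a negative regulator of basal resistance to Pseudomonas syringae, had 0.46, 0.70 and 0.66, a mean of 0.61 ± 0.13 (limma adjusted p = 0.0701). WRKY75, which acts in phosphate starvation and leaf senescence, had 0.26, 1.46 and 0.37. Its mean of 0.70 ± 0.66 thus rested largely on array 2, and it did not pass (limma adjusted p = 0.26).

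Of the 17 measured members of subgroup IIc, 12 had a mean above 0, beside 51.4% of all named genes. Above 0 on all 3 arrays stood 8 of them, beside 19.7%, and below 0 on all 3 stood 0, beside 18.0%. WRKY45, which activates a phosphate transporter gene, stood at 0.37 ± 0.17, and is among the members above 0 on all arrays, but its probes disagreed, at 0.80 and -0.07, so that it stood at 0.80 with RefSeq transcript probes alone. WRKY59 stood at 0.16 ± 0.06. The remaining 10 members lay between -0.15 and 0.10. They include WRKY13, which acts in stem development and flowering (0.02 ± 0.06), WRKY71, a regulator of shoot branching (0.06 ± 0.08), and WRKY23, an auxin-responsive gene of embryo and root development. WRKY23 had 0.39, -0.59 and -0.08 on arrays 1, 2 and 3, so that arrays 1 and 3, of the same dye orientation, differed in sign. WRKY8, known from resistance to viruses and fungi, was among the 8 lowest members with -0.33, 0.02 and -0.14.

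Subgroup IIa holds WRKY18, WRKY40 and WRKY60, leucine-zipper WRKY proteins that bind one another and act together, largely as negative regulators of basal defence and in abscisic acid responses. WRKY18 had 0.55, 2.42 and 1.27 on arrays 1, 2 and 3, a mean of 1.41 ± 0.94 (2.66-fold; limma adjusted p = 0.144). WRKY60 had 1.14, 1.95 and 1.12, a mean of 1.40 ± 0.47 (2.65-fold; limma adjusted p = 0.0639). WRKY40 had -0.06, 2.49 and 0.99, a mean of 1.14 ± 1.28 (limma adjusted p = 0.312). All 3 genes were highest on array 2, and WRKY40 spread most of the 66 members, from slightly below 0 to the second highest single ratio of the family. WRKY60, the gene of this subgroup whose arrays 1 and 3 were nearly equal, was above 1 on every array. None of the 3 passed over all genes; WRKY18 and WRKY60 had an unadjusted p under 0.05.

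Group III, which holds several regulators of salicylic acid responses, had 12 measured members under the symbol rule. The mean of all 12 lay above 0, from 0.003 to 1.36. Of these 6 were above 0 on all 3 arrays, beside 19.7% of all named genes. In limma 5 had an unadjusted p under 0.05, all higher in the mutant, beside 10.6%, and 0 passed over all genes, beside 1.21%. RRS1 (WRKY52) and ABO3 (WRKY63) are of group III too, but have WRKY only as a synonym and are not counted here. RRS1 was lower in the mutant and passed, at -0.96 ± 0.10 (limma adjusted p = 0.0412), and ABO3 stood at 1.03 ± 0.68. WRKY70 and WRKY54, close relatives that together restrain salicylic acid synthesis and leaf senescence, were both above 0 on every array. WRKY70 had 0.59, 1.98 and 0.91 on arrays 1, 2 and 3, a mean of 1.16 ± 0.73 (limma adjusted p = 0.134). WRKY54 had 0.35, 1.32 and 0.84, a mean of 0.84 ± 0.49 (limma adjusted p = 0.126). WRKY46, which overlaps in function with WRKY70 and WRKY53 in basal resistance, had the widest spread of the group, with 0.23, 2.56 and 1.28 and a mean of 1.36 ± 1.16 (limma adjusted p = 0.211). WRKY53, a regulator of leaf senescence, had 0.22, 1.26 and 0.53, a mean of 0.67 ± 0.53 (limma adjusted p = 0.205). In each of these 4 genes the order of the arrays was the same, with array 2 highest and array 1 lowest.

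The negative regulators WRKY38 and WRKY62, whose proteins bind the histone deacetylase HDA19, differed from each other in size. WRKY38 had 0.27, 1.02 and 0.24, a mean of 0.51 ± 0.44 (limma adjusted p = 0.241). WRKY62 had -0.05, 0.34 and -0.06, a mean of 0.08 ± 0.23. WRKY30, which is induced by oxidative stress, had 0.02, 1.16 and 0.21, so that array 2 carried most of its mean of 0.46 ± 0.61. WRKY55 had -0.29, 0.70 and 0.26 and WRKY41, a regulator of seed dormancy, had -0.14, 0.53 and -0.31, both with mixed signs. WRKY64 (0.10, 0.20 and -0.29), WRKY66 (-0.01, 0.05 and 0.04) and WRKY67 (0.10, -0.06 and 0.11) lay around 0. In the gene order of TAIR10.1, WRKY54 and WRKY55 are direct neighbours on chromosome 2 and WRKY67 and WRKY64 on chromosome 1. Their mean ratios were 0.84 and 0.22 in the first pair and 0.05 and 0.003 in the second.

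**Figure D2:**
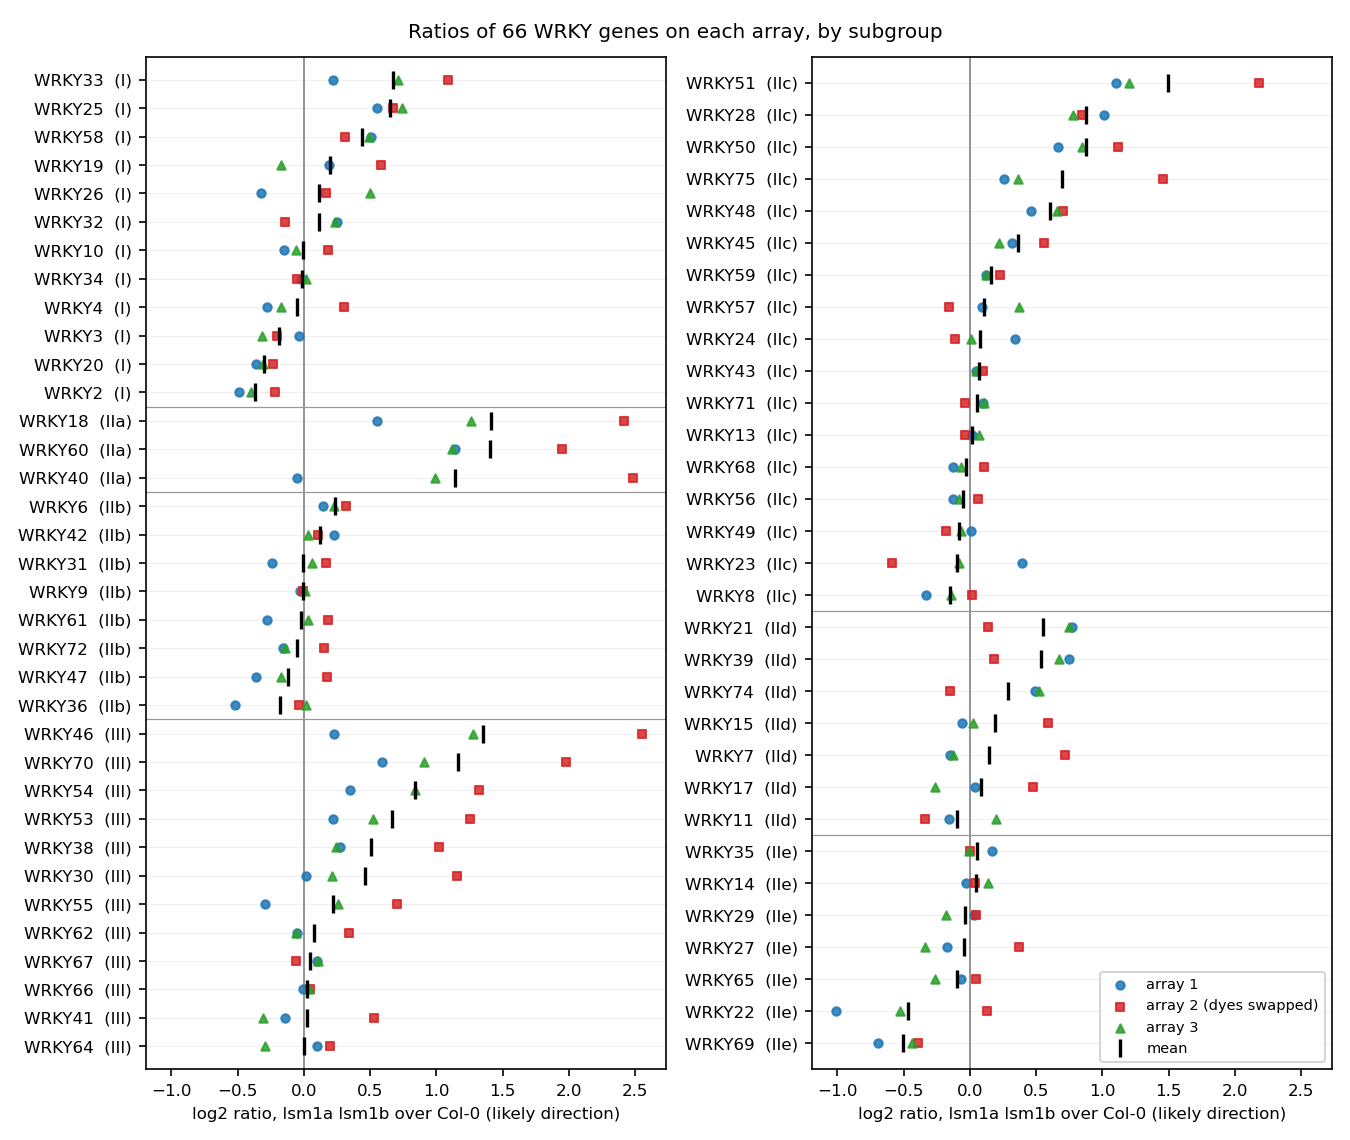
Log2 ratios of lsm1a lsm1b over Col-0 (horizontal axis) of the 66 WRKY genes, 1 row per gene with its subgroup in brackets and genes sorted by mean within a subgroup. Circles, squares and triangles are arrays 1, 2 (dyes swapped) and 3, and black bars are means of the 3 arrays. The IIa genes and the upper genes of III and IIc lie right of 0 with array 2 farthest right, while most of IIb and IIe lie around 0.

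Group I proteins typically carry a WRKY domain at each end and include targets of MAP kinases. WRKY33, required for camalexin synthesis and resistance to necrotrophic fungi, had 0.22, 1.09 and 0.71 on arrays 1, 2 and 3, a mean of 0.67 ± 0.44 (limma adjusted p = 0.155). WRKY25, its close relative in heat tolerance and defence, had 0.55, 0.67 and 0.74, a mean of 0.65 ± 0.10 (limma adjusted p = 0.0603). The means of these genes were nearly equal, but the spread of WRKY25 was much smaller. WRKY26, the third gene of that heat tolerance group, had -0.32, 0.17 and 0.50 and thus no common sign. WRKY58 had 0.51, 0.31 and 0.49, a mean of 0.44 ± 0.11 (limma adjusted p = 0.0992).

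Of the other group I genes, WRKY2, which acts in zygote polarity and pollen development, had -0.49, -0.22 and -0.40, a mean of -0.37 ± 0.14 (limma adjusted p = 0.141). WRKY20 had -0.36, -0.23 and -0.31, a mean of -0.30 ± 0.07 (limma adjusted p = 0.158). WRKY3, a gene of resistance to necrotrophs, had -0.04, -0.20 and -0.32. All 3 were below 0 on every array and none passed over all genes. WRKY34, the pollen partner of WRKY2, stood at -0.02 ± 0.04, WRKY10, which sets seed size in the endosperm, at -0.01 ± 0.17 and WRKY4 at -0.05 ± 0.31. WRKY19, which combines a WRKY domain with receptor and kinase domains, stood at 0.20 ± 0.38 and WRKY32 at 0.12 ± 0.22. Over the 12 group I genes measured under the symbol rule, 6 means were above 0, beside 51.4% of all named genes. The median of the 12 means was 0.05, beside 0.01.

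Subgroup IIe held the 2 lowest members of the family. WRKY69 had -0.69, -0.39 and -0.44 on arrays 1, 2 and 3, a mean of -0.51 ± 0.16 (limma adjusted p = 0.0932), and was below 0 on every array. WRKY22, which acts downstream of MAP kinases in the response to bacterial flagellin, had -1.01, 0.13 and -0.53. Array 2 was thus on the other side of 0, and the mean of -0.47 ± 0.57 did not pass (limma adjusted p = 0.374). WRKY29, its partner in the flagellin pathway, stood at -0.03 ± 0.13. WRKY27, which affects symptoms of bacterial wilt, stood at -0.05 ± 0.37. WRKY14, WRKY35 and WRKY65 lay between -0.09 and 0.05.

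The 8 genes of subgroup IIb had means from -0.18 to 0.23. WRKY6, a regulator of senescence and of the phosphate exporter gene PHO1, had 0.15, 0.32 and 0.23 and a mean of 0.23 ± 0.09 (limma adjusted p = 0.248). WRKY42, which acts on phosphate transport too, stood at 0.12 ± 0.10, and both were above 0 on every array. WRKY36, reported to repress the light signalling gene HY5, had -0.52, -0.04 and 0.02, and WRKY47 had -0.36, 0.18 and -0.17. WRKY9, WRKY31, WRKY61 and WRKY72 lay between -0.05 and -0.003.

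Subgroup IId proteins bind calmodulin. WRKY21 had 0.77, 0.14 and 0.75 on arrays 1, 2 and 3, a mean of 0.55 ± 0.36 (limma adjusted p = 0.165). WRKY39, a gene of heat tolerance, had 0.75, 0.18 and 0.68, a mean of 0.54 ± 0.31 (limma adjusted p = 0.148). These were lowest on array 2, as were WRKY67 of group III and WRKY74 with 0.49, -0.15 and 0.52. WRKY7 (0.15 ± 0.50), WRKY15 (0.19 ± 0.35) and WRKY17 (0.09 ± 0.37) were highest on array 2, and WRKY11 stood at -0.10 ± 0.27. WRKY7, WRKY11 and WRKY17 are known as negative regulators of basal resistance, and none of them kept 1 sign on all 3 arrays.

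Array 2 stood apart within the family. Of the 66 members, 43 (65.2%) had their highest ratio there, beside 41.6% of all named genes, and 14 (21.2%) their lowest, beside 37.9%. In groups IIa and III, 14 of 15 members were highest on array 2, and the median of their ratios was 0.10, 1.16 and 0.26 on arrays 1, 2 and 3. In the 51 members of the other groups that median was 0.02, 0.13 and 0.03. Ratios on array 2 at least 1 above the mean of arrays 1 and 3 were found for 7 members, beside 1.9% of all named genes: WRKY18, WRKY30, WRKY40, WRKY46, WRKY51, WRKY70 and WRKY75. The largest such gap was 2.02, in WRKY40. Dye orientation and the plants of replicate 2 cannot be told apart, since array 2 alone carried the swapped dyes.

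Without array 2, 14 members had a mean ratio of 0.5 or more (21.2%), beside 8.79% of all named genes, and 2 had one of 1 or more, beside 1.83%. These 2 were WRKY51 (1.15) and WRKY60 (1.13). Above 0 on both arrays 1 and 3 stood 30 members (45.5%), beside 35.9%, and below 0 on both stood 17 members, beside 34.9%. The family's ratios at the high end were thus smaller on arrays 1 and 3, while the share at 0.5 or more was again larger among members than among all named genes. Across the 66 members, which share the 3 arrays and are not independent replicates, the ratios of arrays 2 and 3 correlated at r = 0.759 (rho 0.54), those of arrays 1 and 3 at r = 0.746 (rho 0.693) and those of arrays 1 and 2 at r = 0.468 (rho 0.388). Over all named genes r was 0.452, 0.745 and 0.427 in the same order, and rho was 0.226, 0.696 and 0.157. The members with high ratios on array 2 therefore also tended to be high on array 3.

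**Figure D3:**
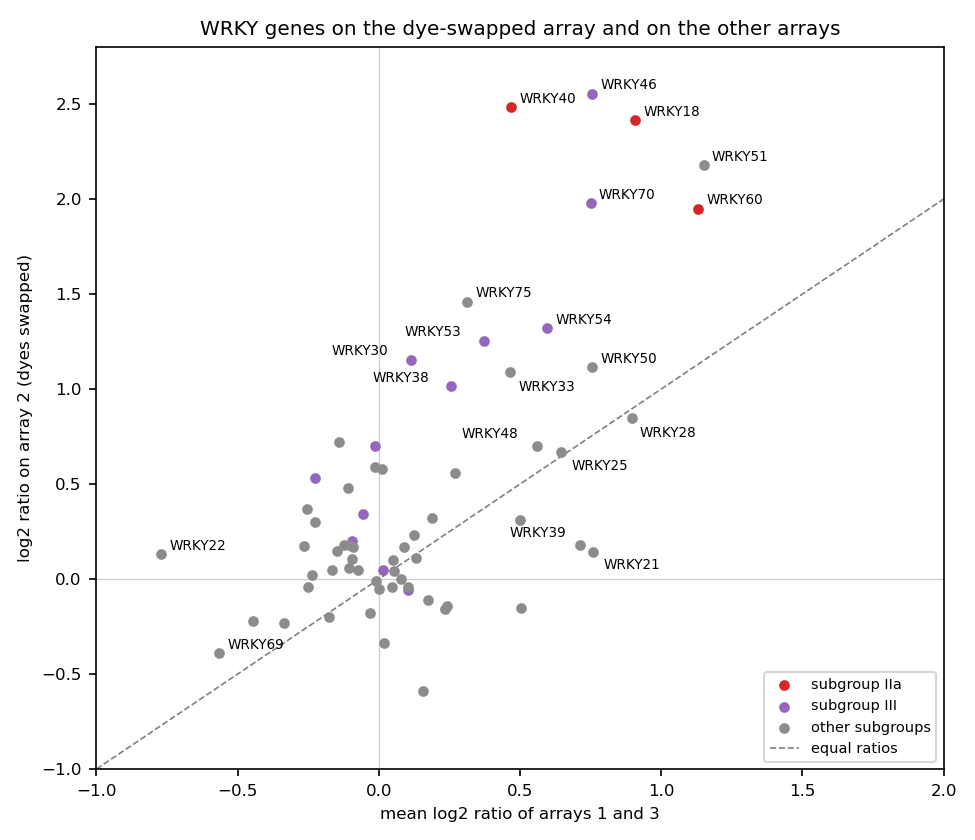
Log2 ratio of lsm1a lsm1b over Col-0 on array 2, with swapped dyes (vertical axis), against the mean of arrays 1 and 3 (horizontal axis) for the 66 WRKY genes, coloured by subgroup, with a dashed line of equal ratios and names for means of at least 0.45 in size. WRKY40, WRKY46 and WRKY18 lie far above the line, WRKY28 and WRKY25 on it, and WRKY21 and WRKY39 below it.

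The probes of a gene mostly gave like values. Over the 25 members with several probes the gap between the highest and the lowest probe mean had a median of 0.14, and it was above 0.5 in 4 genes. WRKY18, WRKY40, WRKY46, WRKY28 and WRKY50 had gaps of at most 0.24. WRKY38 had probes at 0.79, 0.69 and 0.06. In WRKY38 and WRKY45 the lowest probe was the one whose accession was not a RefSeq transcript, and without it WRKY38 stood at 0.74. WRKY57, known from drought tolerance, had probes at 0.46 and -0.25 on either side of 0, so its mean of 0.10 stands for neither. WRKY53 had probes at 0.94 and 0.40.

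**Figure D4:**
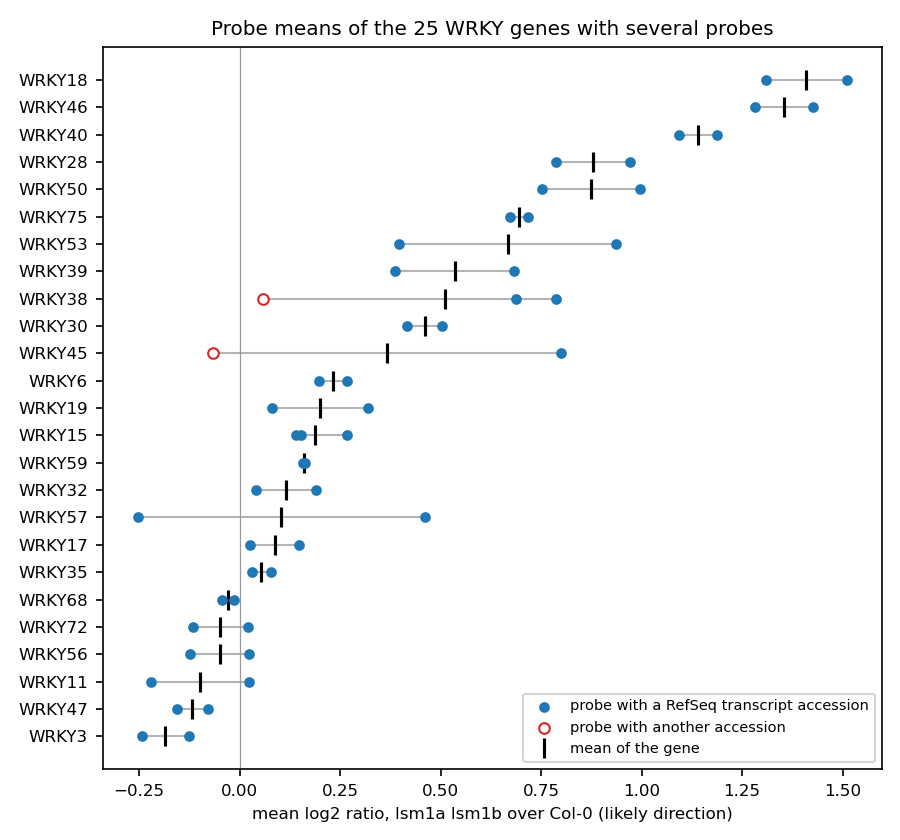
Mean log2 ratios of lsm1a lsm1b over Col-0 (horizontal axis) of each probe of the 25 WRKY genes with several probes, sorted by the mean of the gene (black bar). Filled points are probes with a RefSeq transcript accession and open points the others; a grey line joins the probes of a gene. WRKY45, WRKY38, WRKY57 and WRKY53 have the widest gaps.

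MAP kinases act upstream of several WRKY proteins by phosphorylating them. Of the 8 kinase genes listed, all were measured, 0 passed over all genes, beside 1.21% of all named genes, and 0 had an unadjusted p under 0.05 in limma, beside 20.1%. Their means lay between -0.01 and 0.31, with a median of 0.17, beside 0.01. MKK2 had 0, 0.58 and 0.35 on arrays 1, 2 and 3, a mean of 0.31 ± 0.29. MKK1 had -0.01, 0.74 and 0.06, a mean of 0.26 ± 0.41. Both were highest on array 2 and at or near 0 on array 1. MKK4 had -0.27, 0.91 and 0.12, a mean of 0.25 ± 0.60. MPK4 had 0.05, 0.37 and 0.14, a mean of 0.19 ± 0.17. All 8 were above 0 on array 2, with a median of 0.51 there, against -0.14 on array 1 and 0.13 on array 3.

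VQ proteins bind WRKY domains and change their activity. The list of 9 partners was not of VQ proteins alone and included the histone deacetylase HDA19. Of these 9 partners 8 were measured, and 0 passed over all genes in limma, beside 1.21% of all named genes. At an unadjusted p under 0.05, 3 were higher in the mutant, beside 10.6%, and 1 was lower, beside 9.48%. The median of the 8 means was 0.31, beside 0.01. SIB1, which binds WRKY33, had 0.72, 1.56 and 0.97 on arrays 1, 2 and 3, a mean of 1.08 ± 0.43 (limma adjusted p = 0.0778). VQ1 had 0.55, 0.71 and 0.63, a mean of 0.63 ± 0.08 (limma adjusted p = 0.0606). VQ10 had 0.64, 1.17 and 0.86, a mean of 0.89 ± 0.26 (limma adjusted p = 0.065), but its probes disagreed, at 1.62 and 0.15. VQ4 had -0.54, -0.14 and -0.52, a mean of -0.40 ± 0.22 (limma adjusted p = 0.171). These 4 genes each kept 1 sign on all 3 arrays. The other measured partners did not, with means of 0.39 for JAV1, 0.22 for MKS1, -0.02 for HDA19 and -0.21 for IKU1.

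Among regulators of salicylic acid signalling that act beside or upstream of WRKY genes, 9 of 10 were measured, 0 passed over all genes in limma, beside 1.21% of all named genes, and 5 had an unadjusted p under 0.05, all higher in the mutant, beside 10.6%. The median of the 9 means was 0.36, beside 0.01. NPR3, a salicylic acid receptor, had 1.24, 0.89 and 0.80, a mean of 0.98 ± 0.23 (limma adjusted p = 0.0528). The lipase-like immune regulator PAD4 had 0.56, 1.41 and 0.90, a mean of 0.96 ± 0.42 (limma adjusted p = 0.0879). Its partner EDS1 had 0.49, 0.90 and 0.59, a mean of 0.66 ± 0.21 (limma adjusted p = 0.0788), and both were highest on array 2. NPR1, the receptor and coactivator of salicylic acid responses, had 0.21, 0.61 and 0.30 and a mean of 0.37 ± 0.21 (limma adjusted p = 0.18). Each of these 4 was above 0 on every array, as were 6 of the 9 in all, beside 19.7% of all named genes. The others had mixed signs. NPR4 had -0.31, 0.14 and -0.48 (mean -0.22), and CBP60G had -0.48, 1.42 and 0.13 (mean 0.36). TGA6 had -0.18, 0.29 and -0.12 (mean -0.003).

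Of 14 genes reported as direct targets of WRKY proteins 13 were measured, and 2 of them passed over all genes, both higher in the mutant, beside 0.625% of all named genes. ICS1, a reported target of WRKY28, had 0.80, 1.12 and 0.99 on arrays 1, 2 and 3 and rose 1.96-fold (0.97 ± 0.16; limma adjusted p = 0.0465). CYP71A13, a camalexin synthesis gene under WRKY33, had 1.48, 2.50 and 1.84 and rose 3.83-fold (1.94 ± 0.52; limma adjusted p = 0.047). As for WRKY28, both calls need all 3 arrays, since 0 genes passed when any 1 array was left out or with a dye term. CYP71A13 has a close relative, CYP71A12, and how far its probes tell them apart was not tested. PAD3, the gene of the last step of camalexin synthesis, had 1.32, 3.38 and 2.33, a mean of 2.34 ± 1.03 (limma adjusted p = 0.0788). PR1, with W-boxes in its promoter, had 1.75, 5.71 and 2.11 (limma adjusted p = 0.146), and array 2 stood far above the others. HY5 had -0.05, -1.99 and -0.50 and GL2, a trichome and seed coat regulator, -0.86, -0.50 and -0.42, neither past the threshold (limma adjusted p = 0.346 and 0.0958). FRK1, a marker of pattern-triggered immunity, had 0.79, 1.18 and 0.40, a mean of 0.79 ± 0.39 (limma adjusted p = 0.105). The other targets, PHO1, ACS2, ACS6, JAZ8, ABI4 and ABI5, lay between -0.16 and 0.21. Among these 13 measured genes 6 were above 0 on all 3 arrays, beside 19.7%, and 3 below 0 on all 3, beside 18.0%, and the median of their means was 0.15, beside 0.01.

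**Figure D5:**
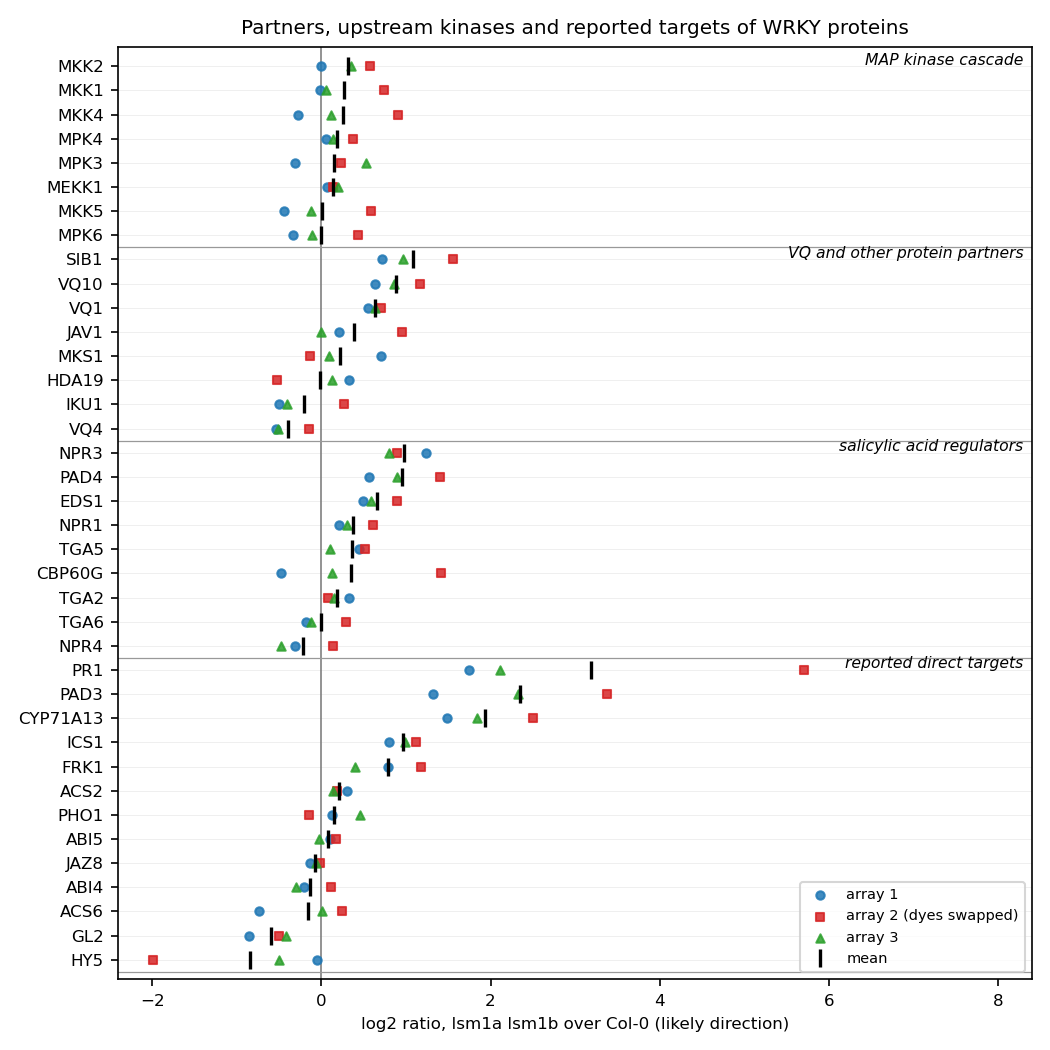
Log2 ratios of lsm1a lsm1b over Col-0 (horizontal axis) of listed MAP kinase, partner, salicylic acid and reported target genes of WRKY proteins, 1 row per gene, sorted by mean within each list. Circles, squares and triangles are arrays 1, 2 (dyes swapped) and 3, and black bars are means. PR1, PAD3, CYP71A13, ICS1 and FRK1 lie right of 0 on every array, while the kinases lie around 0 on arrays 1 and 3.

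The listed markers of other organs were followed as ratios. The 3 flower genes AP1, AP3 and AG, the root genes SHR and RHD6, and the 3 seed genes CRU3, OLEO1 and AT2S3 had means between -0.13 and 0.30, and 0 of these 8 passed over all genes or had an unadjusted p under 0.05 in limma, beside 1.21% and 20.1% of all named genes. AP1 had 0.09, 0.60 and 0.21 on arrays 1, 2 and 3, AP3 had 0.08, 0.46 and 0.05, and AG had -0.32, 0.28 and -0.11. All 3 flower genes were thus highest on array 2, as were 43 of the 66 WRKY genes, beside 41.6% of all named genes. Both root genes were highest there too, with SHR at -0.23, 0.025 and -0.175 and RHD6 at -0.13, 0.26 and -0.16. Of the 3 seed genes 1 was. AP1 and AP3 were above 0 on every array. The part of these markers in the WRKY ratios was not tested.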

How the data were processed

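Two-colour arrays of rosette RNA, 3 in all, were analysed from the value table the authors deposited, which gives 1 normalized log2 ratio per probe and array. The submitters' processing notes name limma with no version; background correction, normalization method, log base and sign: not given in the sources used here. Base 2 was assumed from the range of the values (-6.76 to 5.87); column medians were 0, 0.01 and -0.01. The mutant-over-Col-0 direction rests on the channel labels, which put the mutant in the first channel throughout; the titles name Col-0 first, so the sign is not settled. Without intensities dim probes go unseen, and precision is limited by the number of arrays.

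Of 43656 rows, 55 control features were left out. Through platform annotation and RefSeq gene table (TAIR10.1), 32240 probes were named by accession and 2015 by symbol, 34255 in all; 42 conflicting, 45 unmatched and 9259 unlisted probes stayed unnamed. Per-array means over probes of 24648 genes were tested against 0 in limma 3.58.1 (R 4.3.3; lmFit, eBayes, two-sided), Benjamini-Hochberg adjusted over all of them, threshold 0.05; the fit was tested on simulated data. Members and lists were chosen with earlier results of these data known, so lists are described by counts and medians beside those of all genes. Every WRKY gene may be named. Values on each array are given for those past the threshold, the 12 highest and 8 lowest others and all of IIa and III. They are also given for some other members, by no set rule. A mean ± SD alone can stand for arrays of mixed sign, as in WRKY4 and WRKY27. Of other lists, members past the threshold and up to 4 others with the means largest in size are given on each array. GL2, the target genes near 0, and the partners and salicylic acid regulators without a common sign are named beyond that. Subgroups follow the published classification. Alternatives were each array left out, a dye term, other probe summaries, centring, scaling, robust moderation and unchanged names. LSM1A and LSM1B were not analysed here.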

Additional observations from a re-analysis of the deposited data

How the results depend on the processing

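The main fit was already a paired one, since both genotypes share each array and each ratio is a pair. The calls depend on all 3 arrays: against 298 genes called in limma over all genes, 1 of them a WRKY gene, 0 genes were called when any 1 array was left out, and 0 with a dye term. At an unadjusted p under 0.05, limma then had 15, 22 and 9 WRKY genes without arrays 1, 2 and 3, and 26 with the dye term, against 21; over all genes these were 2804, 7326, 2542 and 6389, against 4944. Testing each probe gave 148 genes, adjusted over all probes and with the middle probe by mean kept per gene. Where 2 probes were in the middle, the lower was kept. Using 1 spread for all arrays gave 76 genes and robust moderation 181. Each of these settings had 0 WRKY genes (17, 21 and 20 at an unadjusted p under 0.05 in limma), and the cause was not tested. Under these WRKY28 had limma adjusted p of 0.0626 (its lower probe), 0.0503 and 0.0502. It was called with median probes, centring, unchanged names or RefSeq probes alone. The number of WRKY genes with 1 sign on all arrays kept was 35 to 47 when 1 array was left out, against 27 with all 3, fewer arrays having to share a sign. The number with a mean of 1 or more was 2 to 7, against 6, and of 0.5 or more 14 to 16, against 17. With the 5 genes that have WRKY only as a synonym, 2 were called; this, the RefSeq probes and the counts of means were chosen after seeing the data. The family median lay between 0.05 and 0.11 under every alternative run. The sign of the mean turned for 11, 9 and 7 of 66 genes without arrays 1, 2 and 3 and for 7 with a dye term, and for 0 to 2 under each other setting; WRKY28 was not among them.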

Other observations

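Genes known as WRKY genes only by a synonym lie outside the family rule, and 5 of 5 were measured; they were picked out after their values were seen. RRS1 (WRKY52), of group III, is a resistance protein gene that joins an immune receptor to a WRKY domain. It had -1.06, -0.86 and -0.97 on arrays 1, 2 and 3. RRS1 thus fell by 0.96 ± 0.10 on the log2 scale (SD, n = 3 arrays, limma adjusted p = 0.0412), with its 2 probes at -1.0 and -0.92. TTR1 (WRKY16), which has the same combination of domains, lay on chromosome 5 as well and stood at -0.21 ± 0.04, with 4 probe means from -0.49 to -0.01. ABO3 (WRKY63), a group III gene of abscisic acid responses, had 0.34, 1.70 and 1.04, a mean of 1.03 ± 0.68 (limma adjusted p = 0.147). In the gene order of TAIR10.1, 3 coding genes lie between it and WRKY64, and WRKY64 stood at 0.003 ± 0.26. TTG2 (WRKY44), a regulator of trichomes and seed coat, stood at -0.23 ± 0.11 and was below 0 on every array, and ZAP1 (WRKY1) stood at 0.12 ± 0.28. RRS1 was called with all 3 arrays and, like every other gene, not with 1 array left out or a dye term; its mean lay between -1.01 and -0.91 when 1 array was left out. Of the 71 genes under either name, 2 passed over all genes in limma, 1 higher and 1 lower in the mutant, beside 1.21% of all named genes.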
